A study of Bos taurus with 8 samples.

Results

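Collagens are the main structural proteins of connective tissue, and each is built from 3 chains wound into a triple helix. Fibrillar collagens form the cables that give a tissue its tensile strength. Type IV collagen forms the sheet under epithelia and around muscle cells and vessels. Transmembrane collagens span the surface of a cell, and the collagens known as FACITs (fibril-associated collagens with interrupted triple helices) attach to fibrils. In the rumen wall, fibroblasts and smooth muscle lie under a stratified squamous epithelium, which is held to its basement membrane by hemidesmosomes and anchoring fibrils. The collagen chain genes were taken from the count table by name, as every symbol made of COL, a number, A and a number, which gave 43 of 33132 genes. They were placed by chain into 11 fibrillar genes, 6 genes of type IV collagen, 10 FACIT genes, 4 transmembrane genes and 12 others.

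RNA was sequenced from whole rumen tissue of 4 newborn male calves and 4 adult steers, which are castrated males, with 1 library per animal and all animals of an Angus cross. The design allows 1 comparison, steer against calf, in which age and castration change together. No label gives the diet, the depth of the wall sampled or a batch. Libraries held 42322022 to 54449684 counts over all genes. Levels are given as CPM, the count relative to the library size after TMM scaling (edgeR's scaling of library sizes). Since counts cover whole gene spans with introns, the level of a gene depends on its length, and changes are read between libraries. Shares, sums and CPM limits over several genes depend on those lengths too. Changes are log2 fold changes, steer minus calf, with the standard error (SE), and a gene is said to have risen or fallen where edgeR's quasi-likelihood test gave a Benjamini-Hochberg adjusted p under 0.05 over the 16326 genes tested. The squamous keratin KRT5 was at 2646 to 3932 CPM in the 8 libraries and the smooth muscle gene DES at 1132 to 54578 CPM, so RNA of both layers of the wall was present in every library. In such bulk samples, fewer cells of a type and less RNA per cell cannot be told apart.

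Of the 39 collagen chain genes that passed the filter on low counts, 15 were lower in steers, 1 was higher, and 23 did not pass the test. Over all tested genes 9.16% were called lower and 7.7% higher. The median log2 change was -0.95 over the 39 chain genes and 0.04 over all tested genes. In 14 of the 39 every steer lay below every calf, as in 12.8% of all tested genes, and these 14 were among the 15 that fell. A gene expressed in calves alone passes the filter only because of the calves, and 7 of the 15 had a steer mean under 1 CPM. Among the 24 chain genes with a mean of at least 10 CPM over all libraries, 8 fell and 1 rose. The shares called over all genes at that level are not given here, so this count has no like background. The 4 genes left out were COL9A1 (72 counts in calves, 4 in steers), COL6A5 (72 and 14), COL22A1 (30 and 0) and COL10A1, which was listed at 0 in all libraries and whose span lies wholly inside another gene, where the authors' counting gives no reads.

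**Figure D1:**
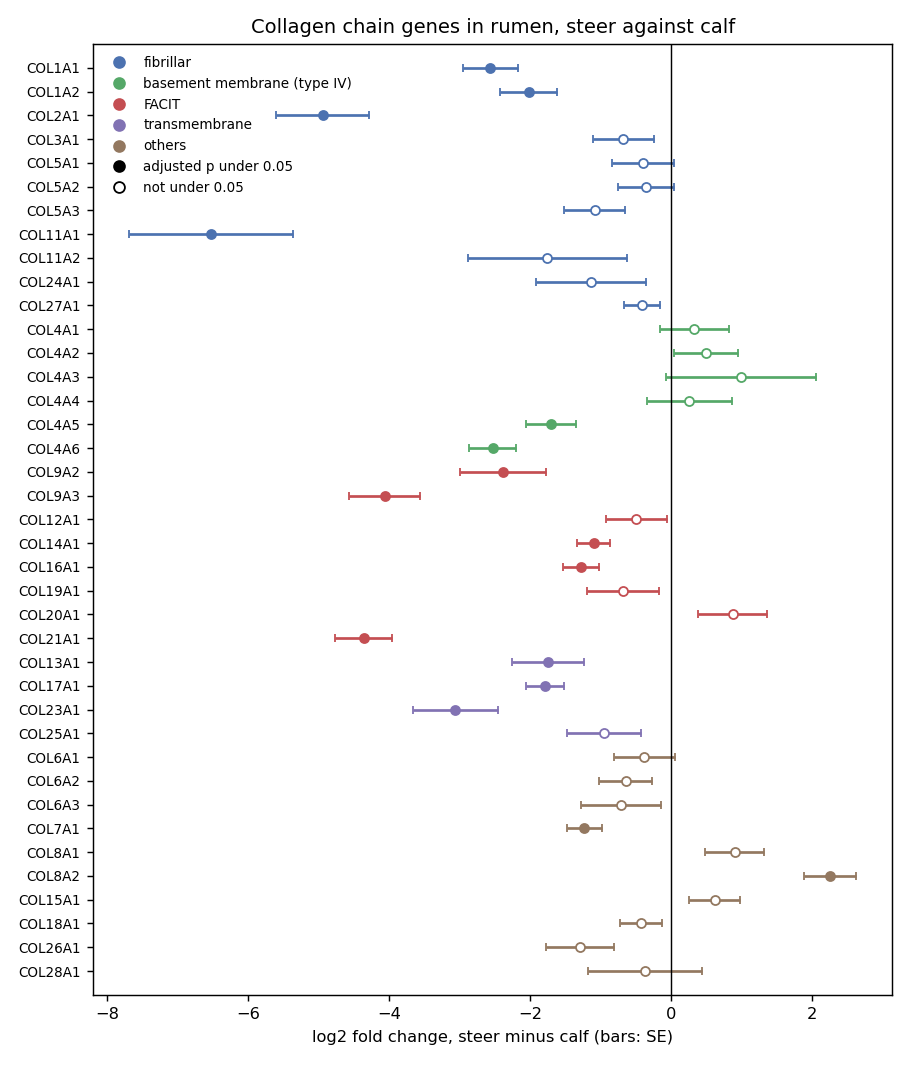
Log2 fold change, steer minus calf, of the 39 tested collagen chain genes (points) with SE (bars), coloured by class, and filled where the adjusted p was under 0.05. The filled points lie left of 0 for 15 genes and right of 0 for COL8A2 alone. COL4A1 and COL4A2 are unfilled, at 0.33 ± 0.49 and 0.49 ± 0.45.

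Among fibrillar genes, the chains of type I collagen, the main fibril of most connective tissue, fell, while the major chains of types III and V did not pass the test. Of the 11 fibrillar genes 4 fell and none rose, and the median log2 change was -1.14. COL1A1 (chromosome 19, 36457701 to 36475647 by the count table's own coordinates, for which no source used here names a genome build) had 1012, 2062, 745 and 968 CPM in calves 1 to 4. In steers 1 to 4 it had 125, 256, 208 and 219.9 CPM. Every steer lay far below the lowest calf. The calf mean was 1197 ± 588 CPM and the steer mean 202 ± 55.4 CPM (SD over 4 animals each), a log2 change of -2.56 ± 0.38 (adjusted p = 0.00232), or 5.92-fold lower. COL1A2 (chromosome 4, 11776444 to 11813113), the partner chain in the same molecule, was at 627, 1011, 285 and 443 CPM in calves and 87.6, 177, 175 and 142 CPM in steers. It fell by 2.02 ± 0.41 on the log2 scale (adjusted p = 0.00888), and its groups did not overlap either. Calf 2 was the highest library for both chains, and without it the changes were -2.17 for COL1A1 and -1.64 for COL1A2, both still past the threshold.

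COL3A1 encodes the single chain of type III collagen, which forms thinner fibrils with type I in distensible tissues. It was at 983, 1441, 471 and 691 CPM in calves and 315, 859, 717 and 347 CPM in steers, a log2 change of -0.68 ± 0.44 (adjusted p = 0.323). Steers 2 and 3 lay within the range of the calves. COL5A1 and COL5A2, chains of type V, which sits inside type I fibrils and limits their width, had changes of -0.40 ± 0.44 (adjusted p = 0.58) and -0.36 ± 0.39 (adjusted p = 0.588). COL5A1 ranged from 165 to 402 CPM in calves and from 93.5 to 323 CPM in steers, and COL5A2 from 52.5 to 161 and from 39.8 to 105 CPM. COL5A3, the third chain of that type, was at 25.1 ± 12.7 and 11.8 ± 5.85 CPM (adjusted p = 0.116). COL27A1, a fibrillar chain best known from cartilage, was at 44.6 ± 14.7 and 33.4 ± 5.32 CPM, with an adjusted p of 0.301. When the mean log2 CPM of smooth muscle markers was added to the fit, COL3A1 and COL5A1 passed as lower (-1.68, adjusted p = 0.0448, and -1.66, adjusted p = 0.0307).

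Shares of the fibrillar counts were compared next. Type I chains took 53.7% to 59.5% of the counts of all fibrillar genes in calves and 24.6% to 39.8% in steers. COL3A1 took 25.9% to 32.2% in calves and 38.1% to 48.9% in steers. The ratio of COL3A1 to COL1A1 counts within a library was 0.972, 0.699, 0.632 and 0.714 in calves and 2.52, 3.35, 3.45 and 1.58 in steers. A ratio between genes depends on their lengths, but its difference between libraries does not, and it needs no scaling. The ratio was 3.5-fold higher in steers, with a log2 difference of 1.81 (two-sided exact permutation p = 0.0286, the smallest that 4 against 4 libraries can give). Of 20 pairs listed, 18 had both genes tested, 16 of them pairs of collagen chains and 2 of a chain with KRT5. This p was reached by 9, of which 7 were chain pairs, which gave an adjusted p of 0.0572 for each of them. None of the 18 pairs thus passed 0.05 after adjustment, and 9 passed before it. With so few libraries, an adjusted p under 0.05 would have needed more than 9 pairs at this smallest p. The ratio of COL5A1 to COL1A1 was 0.195 to 0.241 in calves and 0.425 to 1.26 in steers (exact permutation p = 0.0286, adjusted p = 0.0572). COL1A2 to COL1A1 was 0.383 to 0.619 in calves and 0.646 to 0.84 in steers (log2 difference 0.58, exact permutation p = 0.0286, adjusted p = 0.0572). The ratios to COL1A1 share a gene that had itself fallen, so they are not independent of each other or of that fall. Between chains of type V, COL5A2 to COL5A1, the log2 difference was 0.17 (exact permutation p = 0.629, adjusted p = 0.707).

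**Figure D2:**
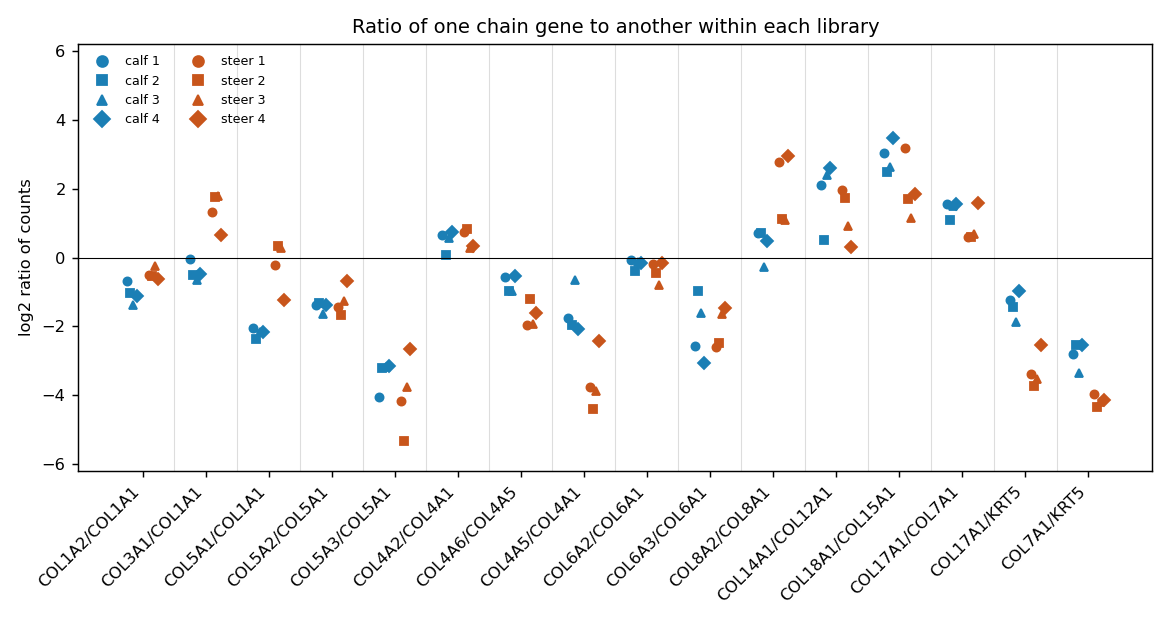
Log2 ratio of counts of 2 genes within each library for 16 of the 18 pairs tested, with calves in blue, steers in orange and the marker shape giving the animal. COL3A1/COL1A1 and COL5A1/COL1A1 are higher in all 4 steers, COL4A5/COL4A1, COL17A1/KRT5 and COL7A1/KRT5 lower in all 4, and COL4A2/COL4A1 and COL6A2/COL6A1 overlap between the groups.

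The cartilage-type fibrillar chains were low in calves and at or near 0 in most steers. COL2A1, the chain of type II collagen of cartilage, had 3.59, 2.98, 3.03 and 2.34 CPM in calves and 0.15, 0, 0.149 and 0.0701 CPM in steers. It changed by -4.95 ± 0.66 (adjusted p = 0.00132) on 588 counts in calves and 18 in steers. COL11A1, which joins type II or type V fibrils, had 256 counts in the calves and 2 in the steers. Both mates of a read pair add to a count, and over read pairs the numbers were 128 and 1. Their ratio, corrected for library size, was 121, with an exact 95% interval of 21.3 to 4802 that covers counting error only. Its call (adjusted p = 0.00521) ended where counts were halved and where 1 CPM in 4 libraries was required, since the gene was then not tested. COL11A2, the third cartilage-type chain, was at 17.7, 11.5, 14.1 and 19.3 CPM in calves and at 17.1, 0.501, 0.782 and 0.21 CPM in steers. Steer 1 lay within the range of the calves and the other steers far below it, so the change of -1.76 ± 1.13 did not pass (adjusted p = 0.323). Without steer 1 it was -4.96 (adjusted p = 0.00109). COL24A1 was at 1.28 ± 0.664 and 0.573 ± 0.605 CPM (adjusted p = 0.354). Marker genes of cartilage were low throughout. The sum of 7 such genes was 2.76 to 4.37 CPM in calves and 0.696 to 1.01 CPM in steers. Of the 4 tested, 1 fell and none rose: the matrix gene ACAN fell (adjusted p = 0.0227) and HAPLN1 was listed at 0 in every library. Their part in the result was not tested.

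Of the 8 FACIT genes tested, 5 fell and none rose, with a median log2 change of -1.19. COL14A1 and COL16A1, FACITs of soft connective tissue, both fell. COL16A1 (chromosome 2, 122012298 to 122068567) was at 225, 188, 145 and 235 CPM in calves and 98.1, 85.7, 89.7 and 52.5 CPM in steers. It changed by -1.28 ± 0.25 (adjusted p = 0.00831), with groups that did not overlap. COL14A1, at 128, 92.7, 99.5 and 142 CPM in calves and 46.5, 69.5, 59.4 and 40.6 CPM in steers, changed by -1.10 ± 0.23 (adjusted p = 0.0119). The close relative of COL14A1, COL12A1, was at 34.2 ± 20.9 and 24.2 ± 9.81 CPM and did not pass (adjusted p = 0.474), and without calf 2 its change was 0.01. The ratio of COL14A1 to COL12A1 had a log2 difference of -0.67 (exact permutation p = 0.257, adjusted p = 0.356), so a difference between these relatives was not detectable.

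COL21A1, a FACIT described in vessel walls and muscle, also fell. It had 13, 6.66, 10.4 and 13.2 CPM in calves and 0.25, 0.557, 0.708 and 0.561 CPM in steers (log2 change -4.36 ± 0.40, adjusted p = 0.000253). Type IX collagen, which coats type II fibrils in cartilage, has chains from 3 genes. COL9A3 had 8.53, 6.49, 4.71 and 4.94 CPM in calves and 0.25, 0.278, 0.186 and 0.736 CPM in steers, a change of -4.06 ± 0.50 (adjusted p = 0.000889), and -4.69 without steer 4. COL9A2 fell from 2.4 ± 1.32 to 0.451 ± 0.285 CPM (adjusted p = 0.0255), with calf 2 (0.836 CPM) just below steer 4 (0.842 CPM). Leaving out calf 1, calf 3, steer 1 or steer 3 ended that call (-2.37 to -2.06), as did the smooth muscle covariate (-1.25, adjusted p = 0.295) and the basal keratinocyte covariate (-2.35, adjusted p = 0.0568). COL9A1 was under the filter. COL19A1 and COL20A1 did not pass (adjusted p = 0.398 and 0.257), and for COL20A1 the change of 0.87 was 0.28 without steer 1, which held 4.4 CPM.

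Of the 6 genes of type IV collagen COL4A5 and COL4A6 fell, none rose, and the median log2 change was 0.29. The genes lie in 3 head-to-head pairs, whose starts are 0.295 kb apart for COL4A1 and COL4A2 on chromosome 12, 0.248 kb for COL4A4 and COL4A3 on chromosome 2 and 1.29 kb for COL4A6 and COL4A5 on chromosome X. COL4A1 and COL4A2 encode the chains found in nearly all basement membranes. COL4A1 was at 247, 633, 173 and 262 CPM in calves and 255, 589, 611 and 195 CPM in steers (log2 change 0.33 ± 0.49, adjusted p = 0.697). COL4A2 was at 386, 671, 258 and 439 CPM in calves and 429, 1052, 743 and 247 CPM in steers (0.49 ± 0.45, adjusted p = 0.501). Steers 2 and 3 were the high steers for both genes, and the ranges of the groups overlapped.

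COL4A5 and COL4A6, whose chains join in the basement membranes of smooth muscle and squamous epithelium, both fell. COL4A5 had 72.8, 162, 110.4 and 62.4 CPM in calves and 18.8, 27.8, 41.6 and 36.4 CPM in steers (log2 change -1.71 ± 0.35, adjusted p = 0.0103). COL4A6 had 49.6, 81.9, 56.3 and 43.3 CPM in calves and 4.85, 12.2, 11 and 11.9 CPM in steers, a 5.79-fold lower level (-2.53 ± 0.33, adjusted p = 0.00123). Neither gene had overlapping groups. Together they held 13.1% to 27.9% of type IV counts in calves and 2.38% to 9.85% in steers. The ratio of COL4A5 to COL4A1 was 0.238 to 0.638 in calves and 0.0472 to 0.187 in steers (log2 difference -2.01, exact permutation p = 0.0286, adjusted p = 0.0572), and COL4A6 to COL4A5 differed by -0.91 at the same p-values. COL4A2 to COL4A1 differed by 0.04 (exact permutation p = 0.914, adjusted p = 0.968). With the smooth muscle covariate COL4A5 lost its call (-1.60, adjusted p = 0.0806) and COL4A6 held it (-2.56, adjusted p = 0.0114). COL4A3 and COL4A4, chains of kidney and lung basement membranes, had 36 and 62 counts in all calves and 72 and 67 in all steers (adjusted p = 0.577 and 0.817).

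COL17A1 and COL7A1, collagens that fasten the epithelium to the wall, both fell. COL17A1 (chromosome 26, 24591185 to 24638263) encodes a transmembrane collagen of hemidesmosomes in basal keratinocytes. It was at 1238, 1158, 950.5 and 1600.1 CPM in calves and 376, 293, 304 and 455 CPM in steers, a 3.46-fold lower level (-1.79 ± 0.27, adjusted p = 0.00227). COL7A1 (chromosome 22, 51287234 to 51317718) encodes the anchoring fibrils beneath them. It was at 419.7, 544, 339.7 and 540.3 CPM in calves and 251, 192, 189.8 and 151 CPM in steers (-1.23 ± 0.25, adjusted p = 0.00917). For both genes the highest steer lay below the lowest calf. KRT5, a keratin of basal cells, had a log2 change of 0.14 ± 0.26 (adjusted p = 0.755), and 8 basal keratinocyte markers summed to 12200 to 17523 CPM in calves and 9687 to 16859 CPM in steers, with 2 of 8 higher and 1 lower. These markers went both ways: the basal keratin KRT14 rose from 803 ± 502 to 2587 ± 516 CPM (adjusted p = 0.0216), DST rose too, TRIM29 fell (-1.20, adjusted p = 0.0123), and the keratin KRT15 had a change of -0.89 ± 0.41 (adjusted p = 0.17). Markers of the suprabasal layers summed to 37559 to 89841 CPM in calves and 1600 to 7831 CPM in steers, with 3 of 6 tested lower and 1 higher. That sum was mostly KRT4 and KRT13 in calves (means of 37739 and 29705 CPM), both of which fell, while KRT6A rose from 198 ± 95.5 to 2180.2 ± 1454 CPM. KRT5 was the keratin chosen for ratios, and ratios to other keratins were not computed. The ratio of COL17A1 to KRT5 was 0.276 to 0.511 in calves and 0.0748 to 0.172 in steers, and that of COL7A1 to KRT5 0.0986 to 0.174 and 0.0491 to 0.0638. The log2 differences were -1.92 and -1.36, each with an exact permutation p = 0.0286 (adjusted p = 0.0572). Since COL17A1 and COL7A1 had themselves fallen, these ratios to KRT5 are not results separate from those falls. COL17A1 to COL7A1 differed by -0.56 (exact permutation p = 0.143, adjusted p = 0.234), with steer 4 the highest of all libraries at a ratio of 3.01, the calves at 2.13 to 2.96 and the other steers at 1.5 to 1.6. Of 5 hemidesmosome partners of COL17A1, 1 rose and none fell. All 5 had a log2 change above 0, as had 8560 of all 16326 tested genes, and their median was 0.52. The partner that rose was DST, which encodes the plakin that ties keratins to the hemidesmosome. It was at 133 to 182 CPM in calves and 249.6 to 305 CPM in steers (0.84 ± 0.19, adjusted p = 0.0154). The DST call ended without calf 1, calf 3 or calf 4 (0.77 to 0.86), with library size as the only scaling and with the smooth muscle covariate.

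The other transmembrane collagens were low, and 3 of the 4 genes of the class fell. COL23A1 had 4.1, 2.68, 2.19 and 2.51 CPM in calves and 0.3, 0.278, 0.0745 and 0.701 CPM in steers (-3.06 ± 0.60, adjusted p = 0.00813), with -3.73 without steer 4 and a lost call with the smooth muscle covariate (-2.51, adjusted p = 0.0575). COL13A1, a collagen of cell adhesion sites, fell from 2.95 ± 0.905 to 0.872 ± 0.569 CPM (-1.75 ± 0.51, adjusted p = 0.0429). That call held in only 1 of the 8 fits that each left out 1 library, the fit without steer 3, and the changes over the 8 were -2.26 to -1.46. COL25A1 was at 1.54 ± 0.355 and 0.801 ± 0.531 CPM (adjusted p = 0.252).

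Among the remaining collagens, COL8A2 was the only chain gene that rose. It encodes a chain of type VIII, a short collagen that forms open networks under endothelium and in vessel walls. COL8A2 (chromosome 3, 109696709 to 109721081) had 3.77, 6.16, 1.85 and 2.8 CPM in calves and 19.2, 13.3, 16.5 and 20.7 CPM in steers, with every steer above every calf. The mean was 4.77-fold higher (2.25 ± 0.37, adjusted p = 0.00353), and the call held in each alternative fit (2.03 to 2.63 with 1 library left out). Its partner COL8A1 was at 2.28, 3.78, 2.23 and 2.01 CPM in calves and 2.8, 6.07, 7.67 and 2.7 CPM in steers (0.90 ± 0.42, adjusted p = 0.174). The ratio of COL8A2 to COL8A1 was 0.831 to 1.65 in calves and 2.15 to 7.65 in steers (log2 difference 1.57, exact permutation p = 0.0286, adjusted p = 0.0572).

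Type VI collagen forms beaded filaments around cells from chains of COL6A1, COL6A2 and COL6A3, and none of these genes passed the test. COL6A1 was at 313 to 690.4 CPM in calves and 161 to 699 CPM in steers (-0.38 ± 0.43, adjusted p = 0.596), and COL6A2 at 289 to 556 and 144 to 507 CPM (-0.65 ± 0.38, adjusted p = 0.28). COL6A3 had 98.3, 355, 102 and 58.8 CPM in calves and 46.5, 125, 144.5 and 58.6 CPM in steers (-0.71 ± 0.57, adjusted p = 0.435). Calf 2 held most of the COL6A3 of the calves, and without it the change was 0.11. With the smooth muscle covariate COL6A1 and COL6A2 passed as lower (-1.84 and -1.83, adjusted p = 0.0067 and 0.00564). COL15A1 and COL18A1, collagens of basement membrane zones that release antiangiogenic fragments, had changes of 0.61 ± 0.36 and -0.43 ± 0.30 (adjusted p = 0.273 and 0.365). COL26A1 was at 40.3, 12.4, 14.4 and 18 CPM in calves and 13.7, 3.95, 5.74 and 11.4 CPM in steers, with an adjusted p of 0.0955, and of 0.0378 in DESeq2. COL28A1 had 71 counts in calves and 53 in steers (adjusted p = 0.8).

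**Figure D3:**
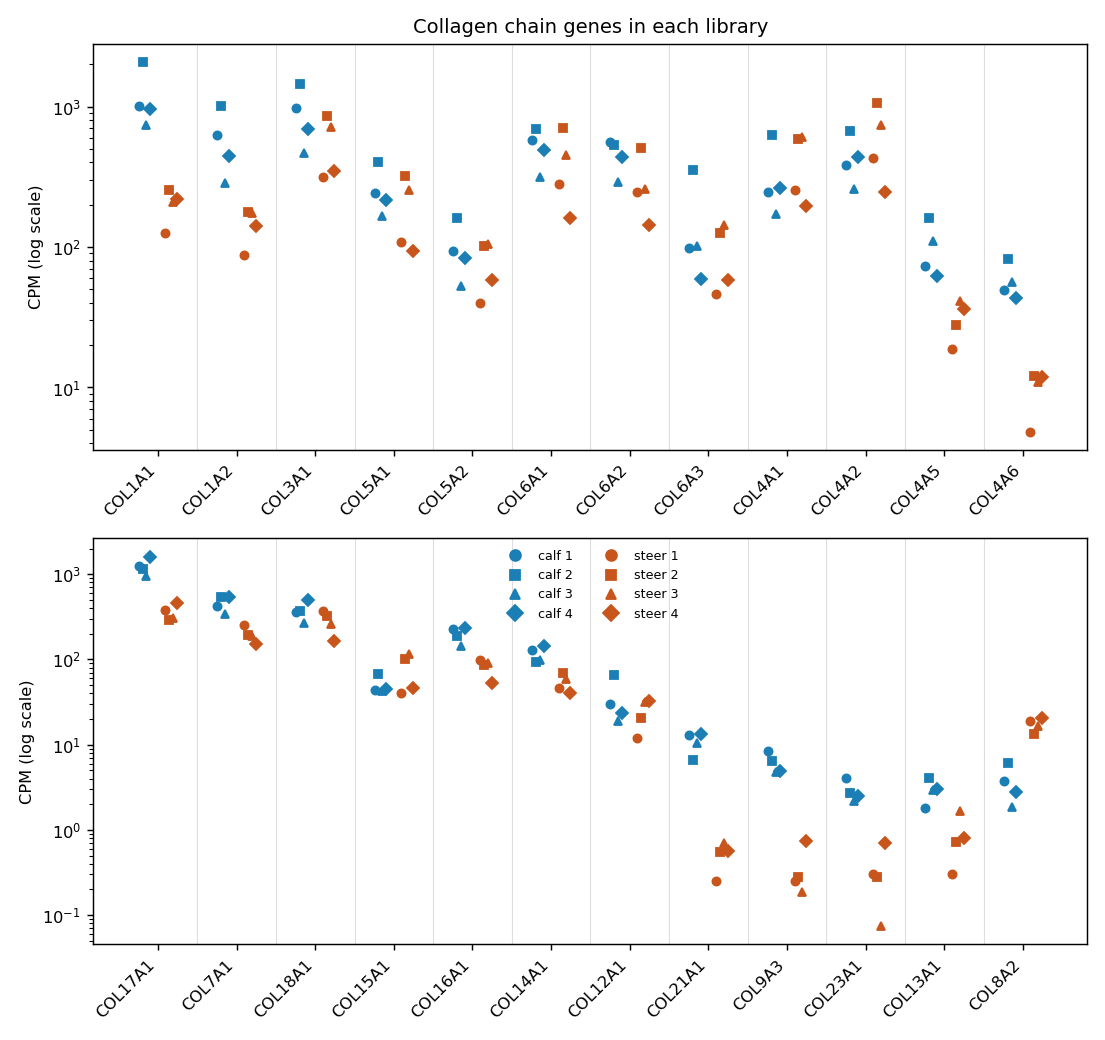
CPM on a log scale of 24 collagen chain genes in each of the 8 libraries, with calves in blue, steers in orange and the marker shape giving the animal. COL1A1, COL1A2, COL4A5, COL4A6, COL17A1 and COL7A1 are lower in all 4 steers than in any calf, COL8A2 is higher in all 4, and COL3A1, COL4A1, COL4A2 and the COL6 genes overlap.

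Genes whose products fold, trim, cross-link, bind and break down collagen were taken in 8 lists. Over these lists 89 of 100 were tested, 12 fell and 7 rose, and the median log2 change was -0.21. Set against the 9.16% lower and 7.7% higher over all tested genes, these counts lie near the background, and the genes below are given one by one. In the list for folding and hydroxylation 4 of 19 fell and none rose. P4HB, a subunit of prolyl hydroxylase, fell from 955 ± 352 to 372 ± 159 CPM (adjusted p = 0.0312), and the collagen chaperone FKBP10 from 41 ± 7.24 to 17.1 ± 6.02 CPM (adjusted p = 0.0129). SERPINH1, the chaperone also called HSP47, was at 225 ± 40.6 and 152 ± 42.6 CPM and did not pass (adjusted p = 0.15). The lysyl hydroxylases PLOD1, PLOD2 and PLOD3 had changes of -0.44 to -0.08 and adjusted p-values of 0.352 to 0.907. P3H2, a prolyl 3-hydroxylase that acts on type IV chains, fell by 1.33 ± 0.39 on the log2 scale, a call held in only 1 of the 8 fits that each left out 1 library, that without steer 3. The P4HB call ended when any of calf 1, calf 3, steer 1, steer 2 and steer 3 was left out (-1.38 to -1.08). It also ended with the smooth muscle covariate, at -0.52 (adjusted p = 0.379), with the basal keratinocyte covariate and with the replicate block (adjusted p = 0.0658 and 0.0721).

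Of 14 tested genes for procollagen export and trimming, 4 fell and none rose. ADAMTS14, a protease that removes the amino-terminal propeptide, had 29.5, 16.4, 13.1 and 8.78 CPM in calves and 0.55, 2.48, 1.49 and 0.631 CPM in steers (-3.72 ± 0.58, adjusted p = 0.00267). BMP1, which removes the carboxy-terminal propeptide, fell from 177 ± 31.6 to 75.4 ± 19.7 CPM (adjusted p = 0.00788), a call lost with the smooth muscle covariate (-0.79, adjusted p = 0.0958), and its enhancer PCOLCE from 22 ± 4.32 to 8.42 ± 3.09 CPM (adjusted p = 0.0103). ADAMTS2, which acts on the same end as ADAMTS14, was at 11.2 ± 5.98 and 8.35 ± 1.24 CPM (adjusted p = 0.432). Among 6 cross-linking genes, LOXL4 rose from 2.52 ± 1.7 to 11.9 ± 6.18 CPM (2.24 ± 0.52, adjusted p = 0.0172) and PXDN, which cross-links type IV collagen, fell by 1.04 ± 0.28 on the log2 scale (adjusted p = 0.0325). PXDN lost its call without calf 1, calf 2, calf 4, steer 1 or steer 4, and LOXL4 with the smooth muscle covariate (1.22, adjusted p = 0.174). LOX itself was at 7.8 ± 6.32 and 4.09 ± 1.23 CPM (adjusted p = 0.268).

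Of 10 tested fibril-binding genes 1 fell and 1 rose. The proteoglycan DCN, which binds type I fibrils, went from 108 ± 43 to 43.2 ± 19 CPM (adjusted p = 0.0369), and the adhesive glycoprotein FN1 from 52.3 ± 22.9 to 189 ± 150 CPM (adjusted p = 0.045), with 402 CPM in steer 3. Both calls ended in most fits that left out 1 library, DCN keeping its call without calf 4 or steer 4 (-1.41 to -1.01 in the fits where it ended) and FN1 without steer 1 or steer 4 (1.18 to 2.07). Of 12 tested receptors 2 rose and 1 fell. ITGA1, the collagen-binding integrin subunit common in smooth muscle, rose from 44.8 ± 15.1 to 132 ± 71.7 CPM (adjusted p = 0.0273), and OSCAR, an immune receptor for collagen, from 0.953 ± 0.533 to 3.9 ± 1.59 CPM (adjusted p = 0.0183). MRC2, an endocytic receptor that takes up collagen for breakdown, fell from 50.5 ± 9.25 to 20.9 ± 6.41 CPM (adjusted p = 0.0106). ITGA1 lost its call without calf 1, calf 3, calf 4, steer 2 or steer 3, and OSCAR without calf 1 or calf 4. With the smooth muscle covariate none of these 3 receptors passed: ITGA1 was at 0.59 (adjusted p = 0.399), OSCAR at 2.21 (adjusted p = 0.073) and MRC2 at -1.12 (adjusted p = 0.0858). FN1 was then at 0.66 (adjusted p = 0.551), DCN at -1.04 (adjusted p = 0.21). In the list for breakdown, 1 of 8 fell and 1 rose. PRODH, which oxidises the proline released from collagen and other proteins, had 131, 159.5, 90.6 and 178 CPM in calves and 10.6, 6.29, 5.48 and 4.86 CPM in steers (-4.36 ± 0.34, adjusted p = 0.000114). PEPD, which frees proline from dipeptides, went from 24.8 ± 1.18 to 38.4 ± 5.91 CPM (0.63 ± 0.18, adjusted p = 0.0345) and lost that call in 6 of the 8 fits, keeping it without steer 1 or steer 4. The collagenase MMP14, the gelatinase MMP2 and MMP16 had adjusted p-values of 0.555, 0.897 and 0.319. MMP9 had 18 counts in calves and 190 in steers (3.32 ± 1.10, adjusted p = 0.066). It passed as higher only with DESeq2, limma-voom, the replicate block, halved counts and without calf 3. Under the filter were MMP1 (0 counts in calves, 68 in steers), MMP3 (0 and 30), MMP13 (10 and 89) and MMP8 (0 and 0). MMP1 passed as higher without the filter and in some fits that left out 1 library. Of 15 laminin, nidogen and proteoglycan partners of type IV collagen 1, LAMA1, rose (0.78 ± 0.23, adjusted p = 0.043), a call held in only 1 of the 8 fits, that without steer 2, and none fell.

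Markers of the cells that make collagen differed between libraries. Fibroblast markers (8 genes) summed to 216 to 542 CPM in calves and 128 to 301 CPM in steers, with 2 of 8 lower, none higher and calf 2 highest. The median log2 change of the 8 was -0.86, with 6 below 0. DCN and THY1 fell, PDGFRB had a change of -0.92 and PDGFRA one of 0.42 (adjusted p = 0.188 and 0.706). Endothelial markers summed to 257 to 532 CPM in calves and 180 to 267 CPM in steers, with 2 of 8 lower. Smooth muscle markers summed to 5650 to 17061 CPM in calves and to 56955, 110530, 53065 and 11185 CPM in steers 1 to 4, and 5 of 9 tested rose. The lowest steer was then read for the 24 chain genes with a mean of at least 10 CPM over all libraries. Steer 4, the lowest steer for smooth muscle, was also the lowest for COL4A1, COL4A2, COL5A1, COL6A1, COL6A2, COL7A1, COL11A2, COL14A1, COL16A1 and COL18A1. Steer 1 was the lowest for COL1A1, COL1A2, COL3A1, COL4A5, COL4A6, COL5A2, COL5A3, COL6A3, COL12A1, COL15A1 and COL27A1. Steer 2 was the lowest for COL8A2, COL17A1 and COL26A1, and COL17A1 was highest in steer 4. Glial markers summed to 77.6 to 142 CPM in calves and 46.1 to 93.8 CPM in steers, mostly ERBB3 (means of 84.8 and 44.4 CPM). Of the 6 glial markers 1 fell and none rose. Mesothelial markers summed to 17 to 27.5 CPM in calves and 46.8 to 119 CPM in steers, mostly UPK3B (means of 20.4 and 72.7 CPM). Of the 4 tested 2 rose, MSLN had a change of -0.50 (adjusted p = 0.79), and WT1 was at 0 in every library. Adipocyte markers summed to 5.85 to 533 CPM in calves and 38.9 to 439 CPM in steers. FABP4 held most of that sum in the steers and in calf 4, but not in calves 1 to 3. ADIPOQ fell from 22.3 ± 24.9 to 0.375 ± 0.0886 CPM (adjusted p = 0.0246). It had 0.0932, 41.7, 1.35 and 45.9 CPM in calves 1 to 4 and 0.245 to 0.445 CPM in steers, so calf 1 lay below every steer. The median log2 change of the 5 tested was -1.93, with 4 below 0, and FABP4 had a change of 0.68 (adjusted p = 0.767). The part of tissue makeup in the collagen changes was not tested. By the marker sums, only steer 4 lay within the range of the calves for smooth muscle, so that covariate and the group largely change together. The fits with the covariate cannot tell them apart, and their values are given as descriptions. With the smooth muscle covariate 16 chain genes were lower, of which 11 were among the 15. COL1A1, COL1A2, COL4A6, COL7A1 and COL17A1 were among these, at -2.83, -2.46, -2.56, -1.57 and -1.55. COL4A5, COL9A2, COL13A1 and COL23A1 were lost, and COL3A1, COL5A1, COL6A1, COL6A2 and COL25A1 were gained.

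**Figure D4:**
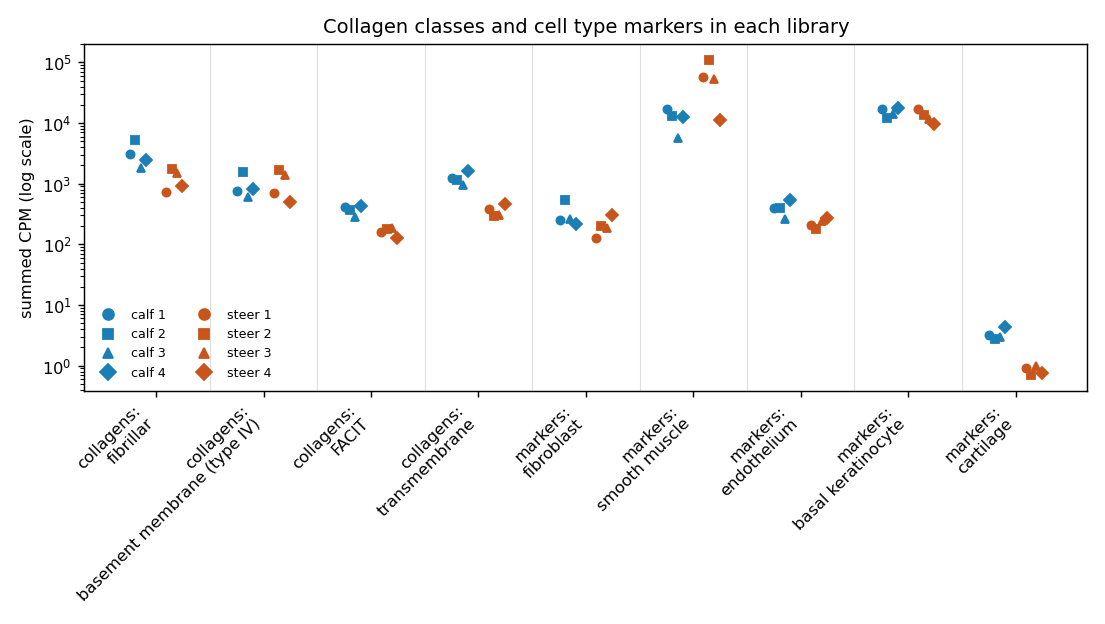
Summed CPM on a log scale of the collagen classes and of cell type markers in each of the 8 libraries, with calves in blue, steers in orange and the marker shape giving the animal. Fibrillar, FACIT and transmembrane sums are lower in all 4 steers than in any calf, the fibrillar sums by a narrow gap (1756 against 1817 CPM). The transmembrane sum is nearly all COL17A1. Type IV sums overlap, and smooth muscle marker sums are high in steers 1 to 3 and at 11185 CPM in steer 4.

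Of the counts of a calf library, 0.522% to 1.37% lay in collagen chain genes, and of a steer library 0.275% to 0.551%. Fibrillar genes summed to 1817 to 5169 CPM in calves and 728 to 1756 CPM in steers, and type IV genes to 598 to 1548 and 490.4 to 1682 CPM. As a share of collagen counts, type IV stood at 10% to 14.3% in calves and 17.8% to 28.9% in steers, and type I was at 19% to 28.4% and 6.56% to 13.2%. These shares are descriptions without a test.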

How the data were processed

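The deposited values are raw counts, 1 whole number for each gene name. Per the file headers, the authors counted using featureCounts 2.0.2 with transcripts as features, so introns count, without a strand option and with both mates of a pair counted, and reads shared by overlapping genes were dropped. Of the 43 chain genes, 28 had no overlapping gene and only COL10A1 was wholly covered. Without strand, antisense reads cannot be told apart. The submitters' processing notes also name Trimmomatic 0.39, STAR 2.7.11a and DESeq2 1.42.0. No source used here names the genome build.

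The comparison used edgeR 4.0.16 under R 4.3.3 on the deposited counts: filterByExpr, TMM, robust quasi-likelihood fit and F test, with Benjamini-Hochberg adjustment over 16326 genes. SE was computed as log2 change over the root of F. CPM is the count over the TMM-scaled library size. Ratios used a pseudocount of 0.5 counts and exact permutation tests over libraries (scipy 1.17.1). The interval covers only counting error. Libraries within a group differed by at least 112.5 chi-square units per degree of freedom, far beyond sampling noise. Simulating this comparison with counts of 16033 genes, the fit recovered 11% of 2-fold and 66% of 4-fold changes. Alternatives were other scalings, filters, limma-voom 3.58.1, DESeq2, a replicate block, halved counts, left-out libraries and marker covariates.

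Members and lists were chosen with earlier results of these data known. Named were all chain genes, up to 3 called genes per list and direction with the largest changes, and genes added as examples after their values were seen (SERPINH1, PLOD1 to PLOD3, ADAMTS2, LOX, the MMP genes, ACAN, HAPLN1 and the keratinocyte, fibroblast, glial, mesothelial and adipocyte markers named). Chromosome numbers are from a RefSeq gene table of ARS-UCD2.0, in which all 43 symbols were found.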

Additional observations from a re-analysis of the deposited data

Results flagged for a closer look

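In 148 groups of 4 values (named genes and chain ratios, in calves or steers) 10 held a library far from the other 3 of its group, and chance flags about 1 in 20 groups. Calf 2 was the high library for 3 genes. It had 355 CPM of COL6A3 against 58.8 to 102 in the other calves, 3.78 CPM of COL8A1 against 2.01 to 2.28, and 67.1 CPM of COL15A1 against 42.8 to 45.1. The fibroblast marker sum was also highest in calf 2. Its part in these values was not tested.

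Steer 1 stood apart for 2 genes, with 17.1 CPM of COL11A2 against 0.21 to 0.782 in the other steers and 4.85 CPM of COL4A6 against 11 to 12.2. Steer 4 had 0.736 CPM of COL9A3 against 0.186 to 0.278, 0.526 CPM of COL28A1 against 0.15 to 0.205, and a log2 ratio of COL17A1 to COL7A1 of 1.59 against 0.59 to 0.68. COL11A1 in steers was at 0.0373 CPM in steer 3 and at 0 in the others, which rests on 2 counts. The log2 ratio of COL5A3 to COL5A1 was -4.05 in calf 1 against -3.21 to -3.15 in the other calves.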

How the results depend on the processing

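The counts of chain genes called lower (15) and higher (1) stayed within 13 to 16 and at 1 in all 21 alternative fits. Leaving out 1 library gave 13 to 14 lower and 1 higher. With the replicate number of the labels as a block the counts were 15 and 1, with COL14A1 lost (-1.11, adjusted p = 0.054) and COL26A1 gained. Same-numbered deviations correlated at -0.27 to 0.20, which gave no sign that the numbers pair the animals but cannot exclude it. In a sign-flip test over the 4 numbers the smallest possible p is 0.125, and without 1 library that of the ratio test is 0.0571, so neither can reach 0.05. The count of pairs with an adjusted p under 0.05 was 0 with a pseudocount of 5 counts and with halved counts. That count says little, since an adjusted p under 0.05 needs more pairs at the smallest p than the main setting had. Genes of the collagen lists called higher (7) numbered 2 with library size only, 11 with DESeq2, 3 with the replicate block, 11 without calf 2 and steer 4, 2 with the smooth muscle covariate and 2 to 8 without 1 library. Those called lower (12) numbered 7 with the basal keratinocyte covariate and 7 to 11 without 1 library. The cause of these shifts was not tested.

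The sign turned for genes and pairs that had not passed. Without calf 2 and steer 4 the log2 changes were 0.13 for COL5A1, 0.11 for COL5A2, 0.046 for COL6A1 and 0.285 for COL6A3, and the pair differences -0.033 for COL4A2/COL4A1 and 0.41 for COL4A4/COL4A3. With the smooth muscle covariate they were -0.93 for COL4A1, -0.97 for COL4A2, -1.25 for COL4A4, -0.17 for COL15A1 and 0.67 for COL28A1. With the basal keratinocyte covariate they were 0.020 for COL6A3 and 0.69 for COL28A1, and with limma-voom 0.068 for COL28A1. Over the fits that each left out 1 library the log2 change ran from -0.70 to 0.010 for COL12A1 and from -1.001 to 0.11 for COL6A3 (turned without calf 2), and from -0.0016 to 0.54 for COL4A4 and from -0.97 to 0.12 for COL28A1 (turned without calf 3). Pair differences ran from -0.10 to 0.13 for COL4A2/COL4A1 (turned without calf 2, steer 1 or steer 2), from -0.33 to 0.37 for COL6A3/COL6A1 (calf 1, calf 4, steer 3 or steer 4) and from -0.025 to 0.30 for COL5A2/COL5A1 (steer 4). Over all genes 1257 were higher and 1495 lower. With library size as the only scaling these were 835 and 1555, with the median log2 change at -0.07 instead of 0.04, with the replicate block 785 and 1046, and with DESeq2 1944 and 2136. Leaving out 1 library gave 705 to 1473 higher and 1029 to 1784 lower, the lowest of both without calf 1.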
